A study of Homo sapiens with 16 samples.

Results

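The cells described here were the 230 cells that the deposited annotation named CD14-PF4, a small cluster of the monocyte and macrophage compartment of mouse mammary tumors. They were taken by that name alone, out of 53946 deposited cells, or 48824 once barcodes that recurred between long-term pools were counted once. The annotation held 22 cell names, and 6 other monocyte and macrophage clusters (Macro-M1, Macro-M2, Macro-MKI67, Macro-others, CD16-CDKN1C and CD14-IL1B) with 25282 cells served as the comparison, with 341 plasmacytoid dendritic cells (pDC) beside them. The name did not hold for Pf4, which was lower in CD14-PF4 cells than in the other clusters together in every experiment, and Hp stood highest over the other clusters in all 3 experiments among genes with under 50% of their UMIs (counted RNA molecules) in 2 cells. The cells are therefore called CD14-PF4 cells after their deposited name, with no cell type implied.

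Monocytes leave the marrow as classical, Ly6c2-high cells that carry Plac8, the chitinase-like protein Chil3 and coagulation factor XIII (F13a1), and in a tumor they can turn into macrophages, which are rich in complement C1q and MHC class II. Pf4 encodes platelet factor 4 (CXCL4), a chemokine of platelet granules that tissue macrophages can also transcribe. Cd177 encodes a GPI-anchored surface protein known from neutrophils, Cd14 the coreceptor for bacterial lipopolysaccharide, and Hp haptoglobin, the plasma scavenger of free hemoglobin that is also stored by myeloid cells. Mature dendritic cells, which share tumors with them, carry the lymph node homing receptor Ccr7 and the actin bundler Fscn1.

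Female FVB mice, bought at 6 weeks of age, received 25 mm3 pieces of LPA1-T22 (T22) or LPA1-T127 (T127) tumors in the mammary fat pad. Both lines came from mice with an LPA1 receptor transgene in the mammary epithelium, and the study treats T22 as sensitive and T127 as resistant to the PARP inhibitor olaparib. Mice were put into treatment groups 14 days after transplantation for T22 and 10 days for T127, and received vehicle or olaparib (50 mg/kg by gavage each day). The short-term experiments treated T22 or T127 tumors for 4 and 8 days (4 pools each). The long-term experiment treated single-strain and co-transplanted tumors for 20 days (8 pools), T22 having been placed on the opposite side 14 days ahead of T127 in co-transplanted mice. The sample records list the organism as human, but the strain is a mouse strain and the gene symbols and genome build are those of the mouse.

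Each pool mixed tumors tagged with hashtag antibodies, and the files used here did not tie a cell to its tumor, so vehicle and olaparib cells cannot be told apart and each experiment counts as 1 sample. No difference was tested. Levels are counts per 1000000 (CPM) of unique molecular identifiers (UMIs) summed over cells, with exact Poisson 95% intervals, and shares of cells carry exact binomial (Clopper-Pearson) 95% intervals. They take in the error of counting and leave out any variation from tumor to tumor. Intervals of levels and of their ratios treat UMIs as independent, so they leave out variation from cell to cell as well. The cluster was defined from the same expression values, so its genes are a description of it.

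Pools held 34755906 to 55600377 UMIs. In the long-term experiment 4146 barcodes of 16 bases occurred in more than 1 pool, mostly in pools 1 and 2, where 3066 of 5670 and 2948 of 5405 deposited cells remained once the deepest copy was kept. In the short-term pools of T22 and T127 only 20 and 3 barcodes recurred. None of the 5122 shallow copies left out was named CD14-PF4, but 15 CD14-PF4 barcodes had 17 shallower copies, of 1062 to 3960 UMIs, that were named CD16-CDKN1C (15 copies) or Macro-others (2 copies). The same barcode thus carried different cluster names at different depths.

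CD14-PF4 cells numbered 98 in the long-term, 66 in the short-term T22 and 66 in the short-term T127 experiment. They made up 0.634% of the monocyte and macrophage cells in the long-term experiment (95% interval 0.515 to 0.772), or 0.490% with all copies as deposited, and 0.840% in T22 tumors (0.650 to 1.07), or 1.28% of cells with at least 3000 UMIs. In T127 tumors the share was 3.00% (2.33 to 3.80). Long-term pools ran from 0.156 to 0.895% with a median of 0.725%, and the pools numbered 2 and 4 held 3 cells each. The T22 pools stood at 0.770, 0.740, 0.689 and 1.16% and the T127 pools at 1.79, 2.28, 4.55 and 3.26%. By this share no T127 pool overlapped a pool of the other experiments. Of all cells, CD14-PF4 cells were 0.381, 0.437 and 0.824% in the long-term, T22 and T127 experiments. By that share pools did overlap, with 10 of 2123 cells in T127 pool 1 and 23 of 3783 in T22 pool 4. The short-term experiments shared their durations of dosing, and tumor line and experiment cannot be told apart between them, while the long-term experiment differed in duration as well. The other clusters included shallow cells, 14.2, 34.4 and 5.95% of them under 3000 UMIs in the long-term, T22 and T127 experiments, while CD14-PF4 cells held none. Their median depth was 8174, 9389 and 8482 UMIs against 8866, 6153 and 10727 in the other clusters.

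Pf4, the gene that names the cluster, was lower in it. Over long-term pools its level in CD14-PF4 cells ran from 0 to 1657 CPM with a median of 155, against 497 to 751 CPM in the other clusters of the same pools. Only pool 1 exceeded that range, and 1 cell held 282 of the 438 Pf4 UMIs of the experiment, the next cells holding 33 and 32. The sum stood at 416 CPM against 599 in the other clusters, a ratio of 0.695 (0.631 to 0.764) and a log2 ratio of -0.51 (all log2 ratios here add 10 CPM to both levels). Without the 2 CD14-PF4 cells richest in Pf4, with the other clusters left whole, the log2 ratio was -2.21. In T22 pools Pf4 stood at 11.02, 33.9, 20.1 and 3.59 CPM, each below the 83.2 to 105 CPM of the other clusters, and the ratio was 0.153 (0.0763 to 0.274) from 11 UMIs in 6 cells. In T127 pools it stood at 87.7, 30.4, 90.6 and 169 CPM, each below 1164 to 1477 CPM, with a ratio of 0.0768 (0.0603 to 0.0965) and a log2 ratio of -3.58, which was -4.98 without the 2 cells that held 70.3% of its UMIs. Macro-M2 cells had the highest Pf4 of the 8 clusters in each experiment, at 1139, 135 and 1942 CPM, and CD14-PF4 cells ranked in place 4, 6 and 6.

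Of Pf4, Cd177 and Cd14, the genes on which the cluster was checked, Cd177 had the highest ratio to the other clusters. It is not in the deposited name, and its level was far below that of Cd14. T22 pools held 66.1, 81.3, 33.5 and 104 CPM in CD14-PF4 cells against at most 1.25 CPM in the other clusters of any pool, a ratio of 85.8 (58.6 to 126) from 58 UMIs in 20 cells. In T127 pools it stood at 14.6, 20.2, 6.47 and 43.6 CPM against 3.75 to 5.64, a ratio of 3.86 (2.05 to 6.72) on 14 UMIs. In the long-term experiment 18 UMIs in 12 cells gave 17.1 against 0.799 CPM, a ratio of 21.4 (12.2 to 35.4), with pools from 0 to 42.1 CPM and a median of 10.1. These long-term and T127 sums fell short of the 20 UMIs asked of a gene in the fold counts given further on. CD14-PF4 cells ranked first of the 8 clusters for Cd177 in each experiment. With every cell thinned to 3000 UMIs, 9.18, 22.7 and 10.6% of CD14-PF4 cells held a Cd177 UMI (12.2, 30.3 and 13.6% unthinned), against 0.326, 0.294 and 1.84% of the other clusters. CD4 T cells named CD4_Tcm-TCF7, which should lack the gene, held it in 0 of 513, 0 of 2216 and 0 of 86 thinned cells, which allows shares of up to 0.585, 0.135 and 3.49%. Their median depth was 2758, 6403 and 2804 UMIs.

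Cd14 differed in direction between experiments. It was found in 82 of 98, 55 of 66 and 58 of 66 CD14-PF4 cells, and its level was 1335 CPM against 1806 in the other clusters in the long-term experiment, a ratio of 0.739 (0.701 to 0.779). In T22 tumors it was 1312 against 1033 CPM, a ratio of 1.27 (1.19 to 1.35), and in T127 tumors 2013 against 2403 CPM, a ratio of 0.838 (0.795 to 0.882). The pools overlapped the other clusters in the long-term (309.8 to 2416 CPM, median 1223, against 1435 to 2159) and T127 experiments (1506, 1488, 2487 and 1875 against 2252 to 2585). T22 pools stood at 1356, 1783, 1314 and 1034 CPM against 1018 to 1064, so pool 4 overlapped as well. Set against the other clusters of the same pool, Cd14 was lower in 7 of 8 long-term and 4 of 4 T127 pools and higher in 3 of 4 T22 pools. The T127 direction of the sum changed with the processing: weighting the 6 clusters equally gave a log2 ratio of 0.18, and leaving out cells with mature dendritic genes 0.11, against -0.25. Macro-M1, 1 of the 6 clusters weighted equally, had only 3 cells and 30771 UMIs in T127 tumors.

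Among the 7 monocyte and macrophage clusters and pDC, CD14-PF4 cells had the highest Hp level in all 3 experiments. The malignant cluster Malign_3 held more in the long-term and T22 experiments, at 4346 and 3941 CPM. Long-term pools held 0 to 2395 CPM with a median of 1265, and only pool 2, whose 3 cells held 0 UMIs, did not exceed the other clusters' 24.6 to 44.2 CPM. T22 pools held 705, 1763, 549.6 and 998 CPM against 12.8 to 18.5, and T127 pools 234, 233, 446 and 311 CPM against 43.7 to 50.7, without overlap. The summed ratio was 43.6 (41.1 to 46.3), 61.7 (56.1 to 67.8) and 7.22 (6.28 to 8.28), with Hp seen in 58, 51 and 33 cells. In the long-term experiment 1 cell held 266 of the 1433 Hp UMIs, and the next held 189, 117 and 116. All of these belonged to the 15 keratin cells described further on, which held Hp at 2464 CPM. Cells with neither keratins nor mature dendritic genes held it at 1076 CPM. Thinned to 3000 UMIs, 53.1, 66.7 and 43.9% of CD14-PF4 cells held an Hp UMI (59.2, 77.3 and 50.0% unthinned), against 6.39, 3.42 and 10.7% of the other clusters. CD4 T cells, which mark the level that free RNA can give, held it in 3.90% and 1.40% in the long-term and T22 experiments and in 0 of 86 cells in T127.

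**Figure D1:**
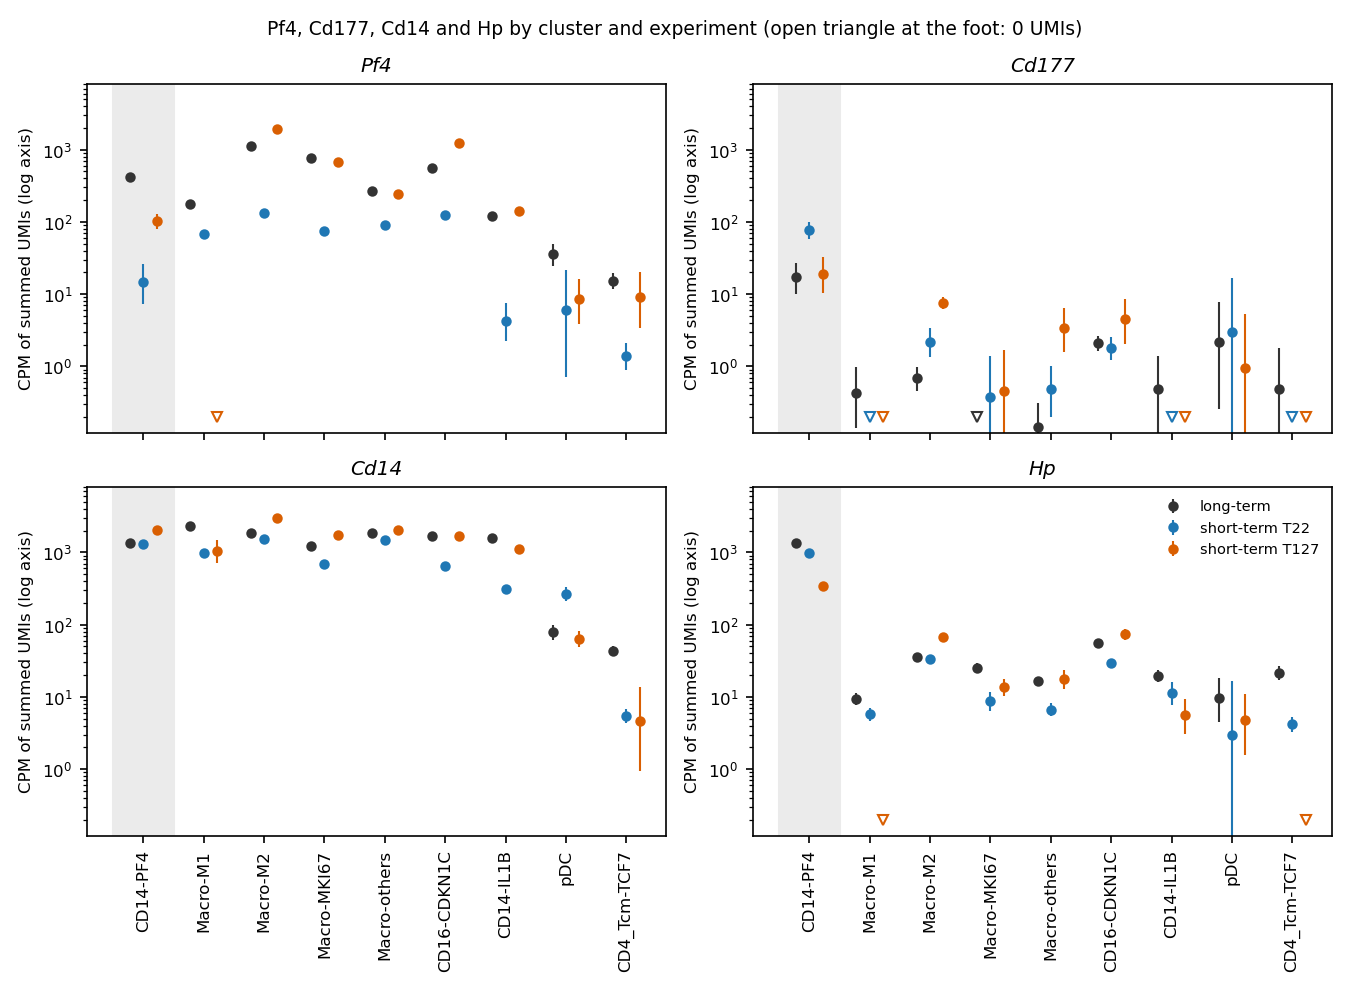
Level of Pf4, Cd177, Cd14 and Hp in CD14-PF4 cells (shaded), the 6 other monocyte and macrophage clusters, pDC and CD4 T cells. The y axis is CPM of summed UMIs on a log scale, points are experiments, bars are exact Poisson 95% intervals and open triangles mark 0 UMIs. CD14-PF4 cells are highest for Cd177 and Hp, near the others for Cd14 and below several clusters for Pf4.

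Genes were compared where they had, or were expected from the other clusters to have, at least 20 UMIs in CD14-PF4 cells. Of 5844 such genes in the long-term experiment 98 were at least 4-fold higher (1.68%) and 10 at least 4-fold lower (0.171%) in CD14-PF4 cells. Of 5515 in T22 tumors 153 were higher (2.77%) and 24 lower (0.435%), and of 5304 in T127 tumors 24 were higher (0.452%) and 19 lower (0.358%). The long-term counts were 50 and 27 without the keratin cells described further on, 246 and 33 with a pseudocount of 1 CPM and 63 and 18 by a mean over cells, and 19 genes were lower with equal weight of the 6 clusters and 20 without pool 8. In T22 tumors 280 were higher and 64 lower with a pseudocount of 1 CPM, and 51 were lower without the keratin cells and 44 by a mean over cells. In T127 tumors 43 were higher and 31 lower with a pseudocount of 1 CPM, and 38 were higher without pool 3. Without the 2 CD14-PF4 cells richest in each gene 34, 87 and 46 genes were lower in the 3 experiments. The other clusters were left whole in that step. It tends to lower ratios by itself, so this rise cannot count as a result. At 2-fold the shares of genes higher and lower were 6.66 and 2.57% in the long-term, 10.4 and 4.22% in the T22 and 1.4 and 1.28% in the T127 experiment. The median log2 ratio over all compared genes was 0.10, 0.13 and 0.02, against which single differences are to be read.

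Many of the higher genes were carried by few cells. The 2 cells richest in a gene held a median of 43.0% of its UMIs among the higher genes of the long-term experiment, against 16.7% over all compared genes. In T22 tumors these medians were 37.8 and 18.8%, and in T127 tumors 90.9 and 18.2%. At least 50% of the UMIs lay in 2 cells for 35 of the 98, 65 of the 153 and 19 of the 24 higher genes. Without those 2 cells, 39, 62 and 1 of them were still 4-fold higher, and in T127 tumors 5 of the 24 were seen in a single cell. Genes at least 4-fold higher and present in at least 1 in 3 cells numbered 10, 68 and 2, the most in T22 tumors. The clusters compared with differed as well. Genes of the classical monocyte list summed to 1011, 361 and 1952 CPM in them, against 4949.9, 5186 and 4149.8 CPM in CD14-PF4 cells.

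**Figure D2:**
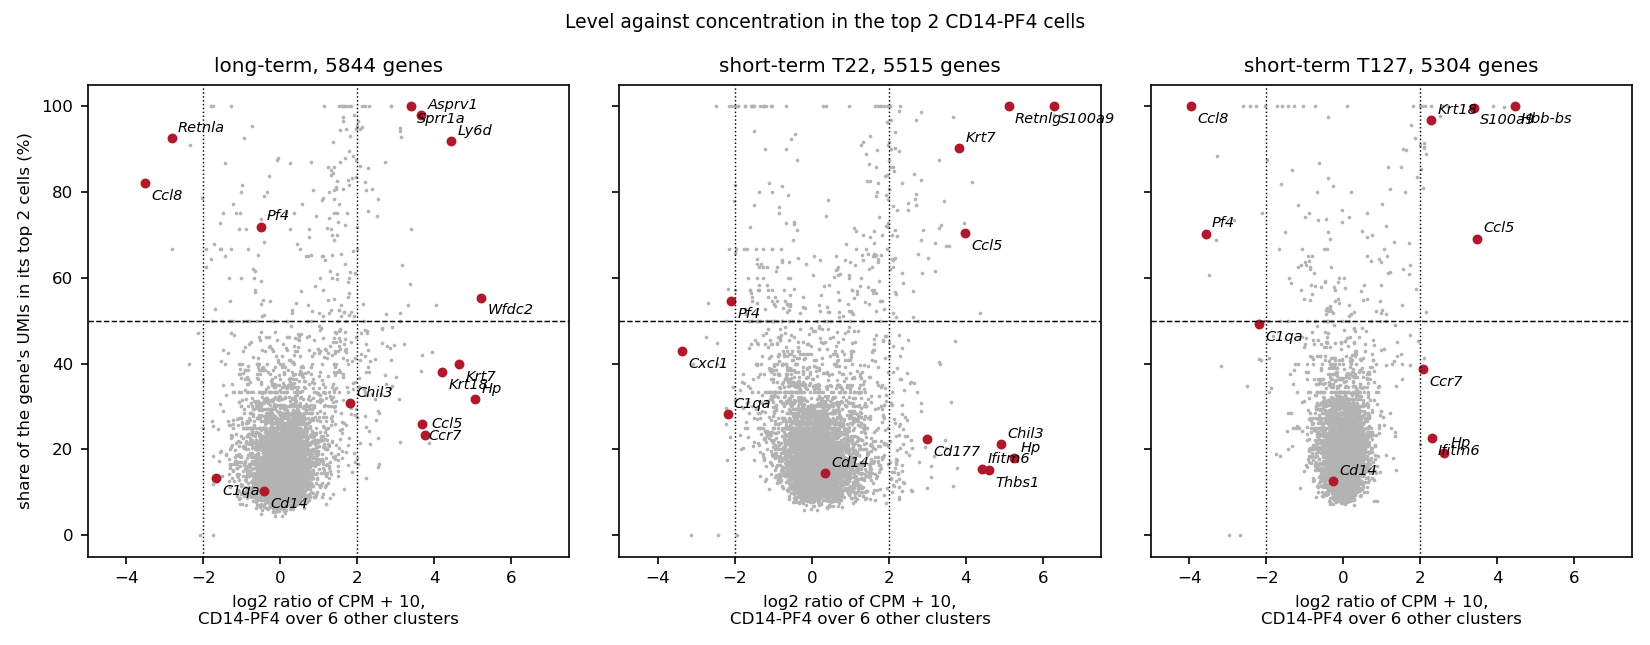
Each point is a compared gene, with the log2 ratio of CD14-PF4 cells over the 6 other clusters (CPM plus 10) on the x axis and the share of its UMIs in its top 2 CD14-PF4 cells, in percent, on the y axis. Dotted lines mark 4-fold and the dashed line 50%. Hp, Chil3, Thbs1 and Ifitm6 lie to the right and low in T22 tumors, while S100a9, Hbb-bs and Krt18 lie to the right at the top in T127 tumors.

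In the long-term experiment the 15 genes highest over the other clusters, among those whose top 2 cells held under 50% of the UMIs, included the keratins Krt7 (360 against 4.88 CPM, log2 ratio 4.64), Krt18 (647 against 25.7 CPM, 4.202) and Krt8 (392 against 21.4 CPM, 3.68), the tight junction claudin Cldn3 (164 against 3.83 CPM, 3.66), the desmosome-associated Perp (365 against 14.4 CPM, 3.94), the milk-type protease inhibitor Wfdc18 (2966 against 157 CPM, 4.16), the protease inhibitor Spint2 (3.11) and the epithelial transcription factor Ehf (3.00). Of 98 cells Krt7 was found in 14 and Cldn3 in 12, while Spint2 was found in 31 and Wfdc18 in 56. The level of Wfdc18 was 7953 CPM in the 15 keratin cells described further on. It was 147 CPM in cells with neither keratins nor mature dendritic genes, below the other clusters. They also included Fscn1 (439 against 21.2 CPM, 3.85, 19 cells) and Ccr7 (394 against 21.5 CPM, 3.68, 18 cells), both on the mature dendritic list, and the chemokine Ccl5 (3590 against 256 CPM, 3.76, 29 cells). Hp (log2 ratio 5.06) was the only gene of the classical monocyte list among the 15. The stress-response gene Nupr1 (2.94, 50 cells), the glutathione transferase Gsta4 (3.20) and Gm13546 (3.07) made up the rest.

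Of the 35 higher genes with at least 50% of their UMIs in 2 cells, the 8 highest are given next. Wfdc2 (log2 ratio 5.22) had 55.3% of its UMIs in 2 cells and the basal keratin Krt14 (4.05) 53.6%. All 100 UMIs of Sprr1a, a cornified envelope gene, came from 1 cell, and Prl2c3 (3.43) and Asprv1 (3.66) had 99.3 and 97.9% in 2 cells. Ly6d, which is also on the pDC list, had 91.8% of its UMIs in 2 cells and a log2 ratio of 4.44 that became 1.35 without them. Wfdc3 and Wfdc12 completed the set at 3.39 and 3.36. In T127 tumors the CD14-PF4 cells held 5 UMIs of Wfdc2, 12 of Asprv1 and 0 of the other 6.

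Among the 10 genes lowest in CD14-PF4 cells of the long-term experiment were the chemokine genes Ccl8, Cxcl13 and Cxcl9. The monocyte chemoattractant Ccl8 was at 37.1 against 531 CPM (log2 ratio -3.52), and the log2 ratio was -1.74 in T22 and -3.95 in T127 tumors. Retnla, a marker of alternatively activated macrophages, was at 38.0 against 331 CPM, and the 2 richest cells held 92.5% of it. Cd207 (langerin) was at 11.4 against 141 CPM, Tmem119 at 30.4 against 154 CPM and the cytokine Il1a at 55.1 against 252 CPM. The B cell chemoattractant Cxcl13 had 0 UMIs against 32.6 CPM, which makes it at least 11.4-fold lower with a floor of 3 UMIs over the experiment. Dnase1l3 (-2.38), Cxcl9 (-2.35), Hist1h2ae (-2.14) and Lyz1 (-2.03) completed the list. Cxcl9 and Lyz1 went the other way in T22 tumors, at log2 ratios of 1.64 and 2.25, but there 100 and 98.9% of their UMIs lay in 2 cells.

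The classical monocyte genes stood higher as a group. Their sum was 4949.9 CPM in CD14-PF4 cells against 1011 in the other clusters of the long-term experiment, a ratio of 4.90 (4.76 to 5.03). It was 5186 against 361 CPM in T22 tumors, a ratio of 14.3 (13.9 to 14.8), and 4149.8 against 1952 CPM in T127 tumors, a ratio of 2.13 (2.05 to 2.21). All 8 listed genes were comparable, and 6, 7 and 4 of them were at least 2-fold higher, none 2-fold lower. Long-term pools ran from 34.4 to 10102 CPM with a median of 5489, and only pool 2 fell below the other clusters' 661 to 1490.1 CPM. T22 pools held 4773, 6915, 4343 and 4992 CPM and T127 pools 2339, 4708, 4735 and 4214 CPM, all above the other clusters of their pools. The cluster with the next highest sum reached 1683, 877 and 3408 CPM. The pDC stood above all of these at 9054, 7386 and 11486 CPM, through Ly6c2 and Plac8, which they also express, while their Hp was 9.69, 2.98 and 4.75 CPM.

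Chil3 (long-term log2 ratio 1.82, T22 4.92, T127 0.51), Ly6c2 (2.54, 3.16 and 1.06) and Plac8 (1.90, 3.10 and 1.36) showed the same order, with T22 tumors widest. The hyaluronan-binding proteoglycan Vcan (1.86, 2.83 and 0.60) and F13a1 (0.62, 3.77 and 0.52) followed it. Ccr2, the receptor that draws classical monocytes from the marrow, was close to the other clusters at 0.69, 0.39 and -0.07. In T22 pools Chil3 stood at 959, 1288, 603 and 1579 CPM against 25.3 to 33.6, whereas T127 pools, at 278, 739, 983 and 812 CPM, overlapped the other clusters at 434 to 652. The level of these genes in the other clusters was itself lowest in T22 tumors.

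**Figure D3:**
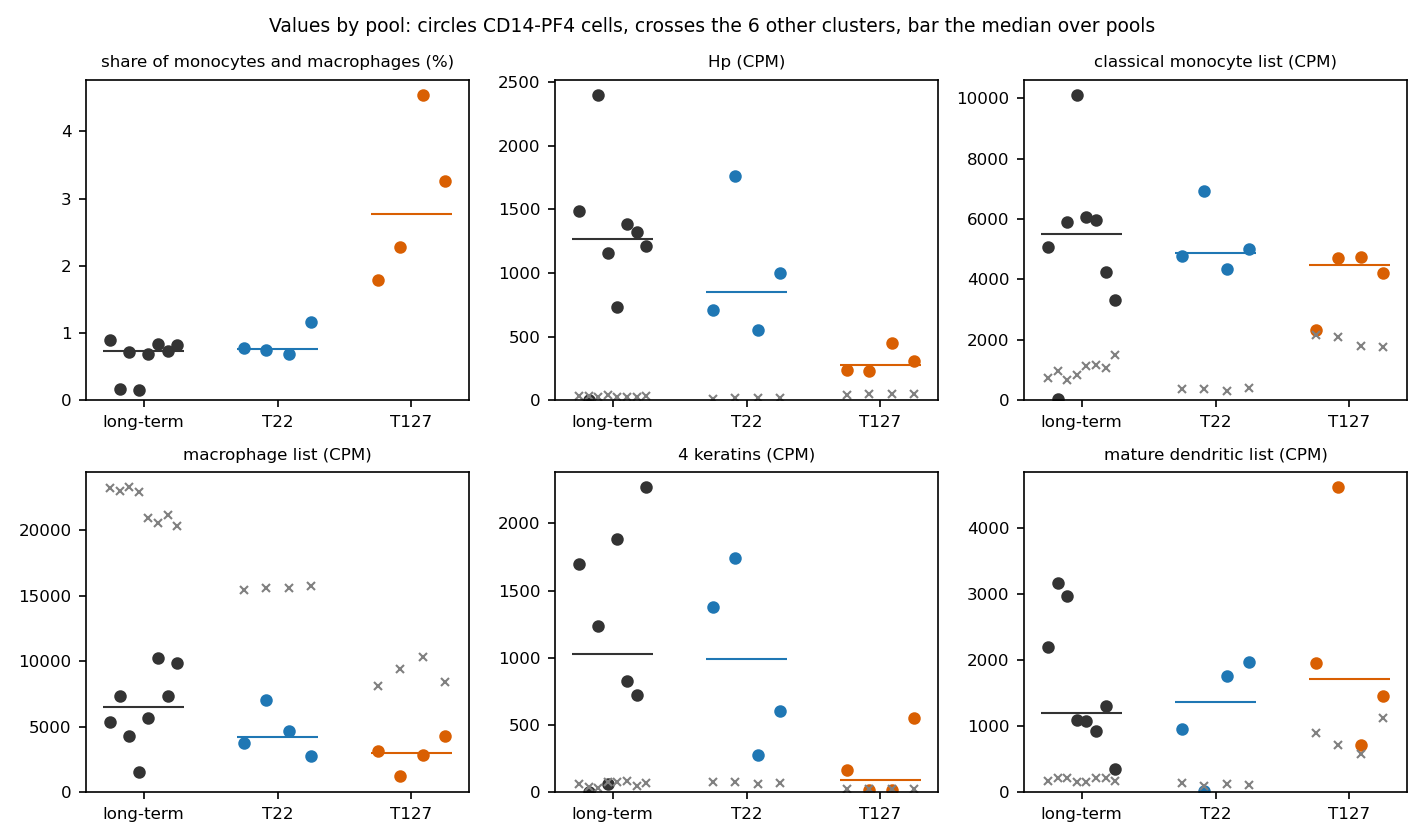
Share of CD14-PF4 cells and summed CPM of Hp and 4 gene lists, by pool. Circles are CD14-PF4 cells of a pool, grey crosses the 6 other clusters of that pool and bars the median over pools (8 long-term, 4 T22, 4 T127). Hp and the classical monocyte list lie above the crosses except in long-term pool 2, and the macrophage list lies below them in every pool.

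Genes of differentiated macrophages stood lower. The macrophage list summed to 7259.9 against 21869 CPM in the long-term, 4222 against 15597 CPM in the T22 and 3062 against 9085 CPM in the T127 experiment, ratios of 0.332 (0.325 to 0.340), 0.271 (0.261 to 0.280) and 0.337 (0.323 to 0.351). Of 9, 8 and 9 comparable members 5, 4 and 4 were at least 2-fold lower and none 2-fold higher. Long-term pools spanned 1544 to 10248 CPM with a median of 6514 against 20370.3 to 23335 in the other clusters. T22 pools held 3797, 7057, 4699 and 2742 CPM against at least 15432, and T127 pools 3158, 1286, 2862 and 4285 CPM against at least 8146, so no pool overlapped.

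C1qa, a chain of complement C1q, was at 2758 against 8777 CPM in the long-term, 1341 against 6159.5 CPM in the T22 and 751 against 3464 CPM in the T127 experiment (log2 ratios -1.67, -2.19 and -2.19), with C1qb and C1qc alike. Ms4a7, a membrane protein of tumor macrophages, was at -1.75, -2.46 and -3.17. Adgre1 (F4/80) stood at -1.16, -0.87 and -1.45, Csf1r, the receptor for the macrophage growth factor, at -0.89, -0.70 and -0.49. The complement list had ratios of 0.325, 0.244 and 0.294 with 6, 5 and 5 members at least 2-fold lower. Over all compared genes 2.57, 4.22 and 1.28% were that much lower. MHC class II was at 0.476, 0.225 and 0.783, and 3, 7 and 0 of its 7 members were 2-fold lower, the invariant chain Cd74 having log2 ratios of -1.07, -2.20 and -0.23. The lysosome list stood at 0.525, 0.509 and 0.705. Lyz2, a pan-myeloid lysozyme, had ratios of 1.07 (1.05 to 1.09), 2.19 (2.15 to 2.23) and 0.957 (0.937 to 0.976).

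Chemokines were mixed. The CXC list, which holds Pf4, had ratios of 0.536, 0.385 and 0.404, and 4, 5 and 6 members were at least 2-fold lower. The share over all compared genes was 2.57, 4.22 and 1.28%. The neutrophil attractant Cxcl2 was at log2 ratios of -1.17, -2.74 and -0.85 and Cxcl1 at -0.49, -3.37 and -0.67. Ppbp, the platelet gene beside Pf4, had 1, 0 and 0 UMIs. Of the CC chemokines Ccl5 had high sums in each experiment (log2 ratios 3.76, 3.98 and 3.47), but 70.4 and 69.1% of it lay in 2 cells in T22 and T127 tumors. It was below the other clusters of the same pool in 1 of 8 long-term, 1 of 4 T22 and 2 of 4 T127 pools. Ccl2, the ligand of Ccr2, was at -0.42, -1.77 and -2.49, Ccl7 at -0.31, -1.57 and -3.49 and Ccl12 at -1.01, -1.53 and -3.28.

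Among cytokines Il1b was at -1.17, -0.22 and -0.63 and Il12b, a product of mature dendritic cells, at 2.63, 2.21 and 2.08. Coagulation genes had summed ratios of 1.45, 3.58 and 1.11. Thbs1 (thrombospondin 1) led them at 493.2 against 95.98 CPM in the long-term, 762 against 22.04 CPM in the T22 and 728 against 452 CPM in the T127 experiment (log2 ratios 2.25, 4.59 and 0.68), and factor X (F10) stood at 1.26, 2.52 and 0.20. The integrin chains Itgam and Itgb2, which pair as the receptor that associates with CD177, were at 0.25 and 0.09 in the long-term, 1.02 and 0.73 in the T22 and -0.57 and -0.12 in the T127 experiment. The lipopolysaccharide list, which holds Cd14, had ratios of 0.719, 1.18 and 0.846 with no member 2-fold apart. Cell cycle genes were at 0.366, 0.386 and 0.566, with 3, 4 and 1 members at least 2-fold lower, against 2.57, 4.22 and 1.28% of all compared genes. The other clusters take in Macro-MKI67, named after a gene of that list, with 420, 330 and 198 cells.

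**Figure D4:**
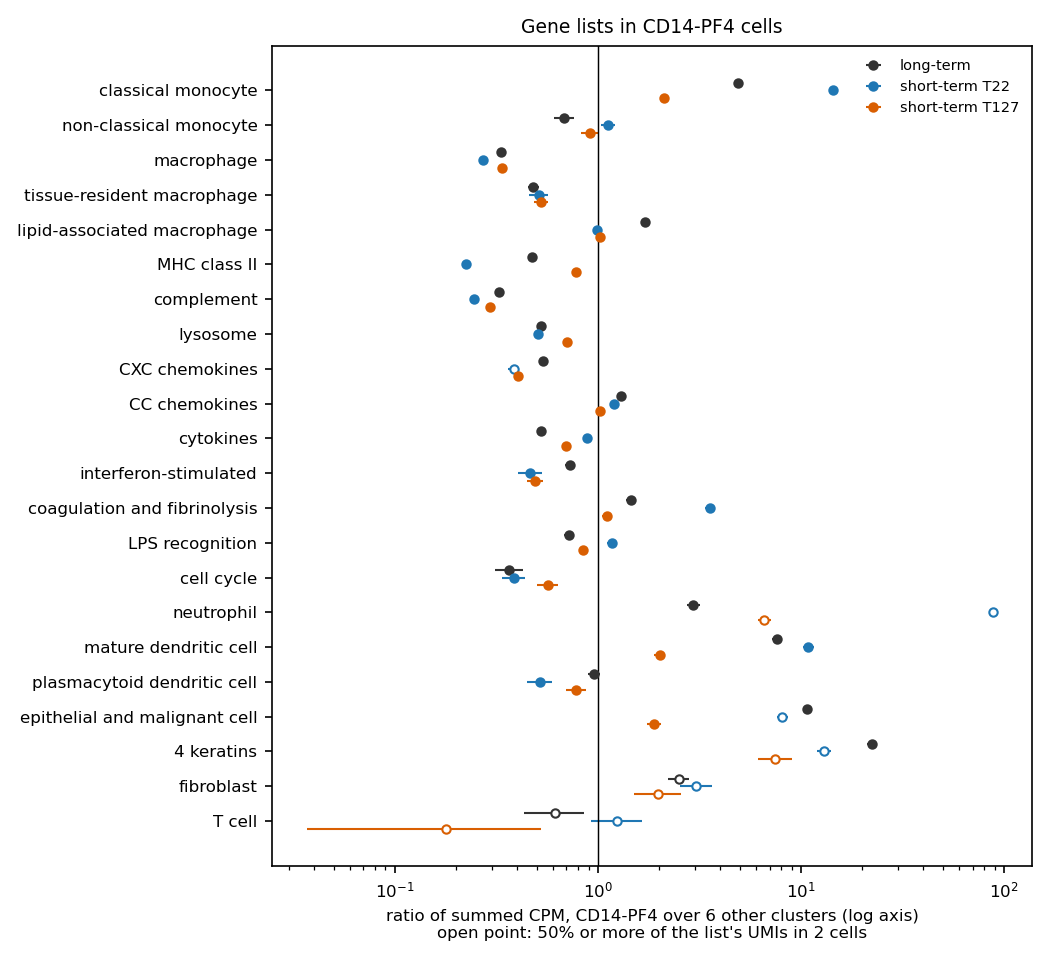
Ratio of the summed CPM of each gene list in CD14-PF4 cells over the 6 other clusters, on a log x axis, by experiment, with 95% intervals for counting error. Open points mark lists with at least 50% of their UMIs in 2 cells. The classical monocyte, mature dendritic and keratin lists lie right of 1 and the macrophage, complement and MHC class II lists left of it in all 3 experiments.

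Markers of other cell types were read over their whole lists. Platelet and megakaryocyte genes gave 8, 6 and 1 UMIs over the experiments. Siglech, which defines pDC, had 0 UMIs in all 3 experiments (limits of 2.85, 3.96 and 4.12 CPM for a floor of 3 UMIs). Eosinophil genes gave 0, 4 and 2 UMIs and T cell genes 36, 49 and 3. Neutrophil genes stood at 2.96, 88.3 and 6.61 times the other clusters, and the 2 cells richest in them held 32.8, 92.4 and 94.7% of their UMIs. Without those 2 cells the ratios were 2.01, 7.21 and 0.368, so the T127 direction rested on them. At least 5 neutrophil UMIs were found in 27 of 98 long-term, 17 of 66 T22 and 4 of 66 T127 cells, and all of these but 1 T22 cell also passed the limit of 5 classical monocyte UMIs. In the other clusters 3.41, 0.244 and 5.11% of cells passed both limits, so the 4 of 66 T127 cells lay near that share. The sum exceeded that of the other clusters of the same pool in 7 of 8 long-term, 4 of 4 T22 and 2 of 4 T127 pools. Ly6g, the defining neutrophil gene, had 0, 12 and 0 UMIs. In T22 pools the neutrophil sum was 182, 251, 597 and 11057 CPM, so that pool 4 alone carried the high value, and S100a9 there came wholly from 2 cells. Erythroid genes were 20.2 times the other clusters in T127 tumors, where Hba-a1 came from 1 cell. The 2 cells richest in neutrophil genes held 0.837, 8.96 and 10.4% of the Hp UMIs and 0 of 18, 7 of 58 and 1 of 14 Cd177 UMIs. Without them the ratio was 43.8, 60.2 and 6.85 for Hp, 21.7, 80.9 and 3.79 for Cd177 and 4.84, 15.1 and 2.21 for the classical monocyte list. The part of the other cells with neutrophil UMIs in these results was not tested.

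**Figure D5:**
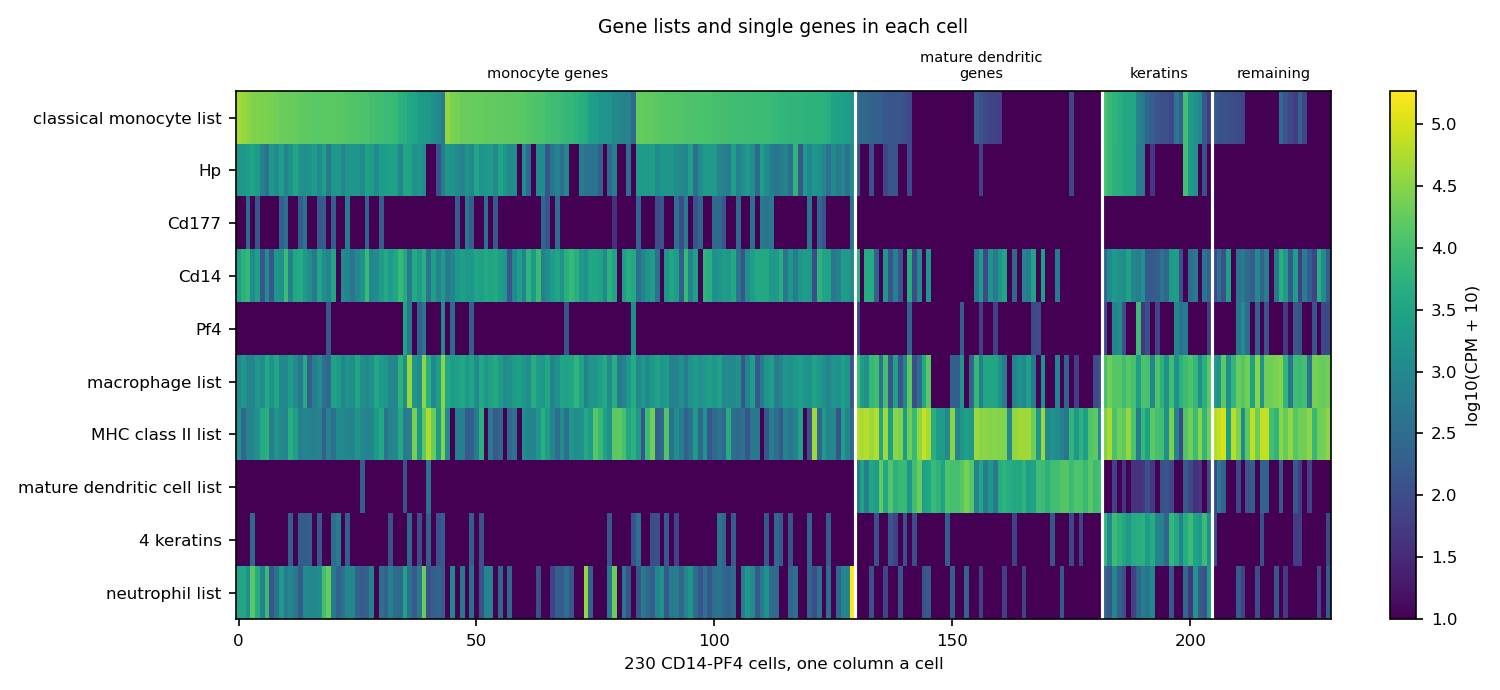
Each column is 1 of the 230 CD14-PF4 cells, grouped by gene content and, within a set, by experiment (long-term, T127, T22). Rows are summed lists and single genes, and color is log10 of CPM plus 10. Mature dendritic genes and keratins share 1 column, Hp is seen in both the monocyte gene and the keratin columns, and Cd177 lies within the 130 cells with monocyte genes.

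Keratins and mature dendritic genes came from different cells. With a limit of 5 UMIs per list, set after the data had been seen, 23 of the 230 cells held the keratins Krt5, Krt8, Krt14 and Krt18, 53 held mature dendritic genes, and only 1 cell held both. Of the 155 cells with neither, 130 held classical monocyte genes and 25 held none of the 3. Few cells lay near the limit: 4 cells had 3 to 4 and 1 had 5 to 7 keratin UMIs, and for mature dendritic genes these numbers were 4 and 2, for classical monocyte genes 8 and 8. In the other clusters 0.981% of cells passed the limit for keratins and 4.12% that for mature dendritic genes, and 17.8% passed as monocyte gene cells. The limit was applied without thinning, so these shares were not matched for depth. These shares differed between the long-term, T22 and T127 experiments. Monocyte gene cells were 17.5, 8.85 and 52.5% of the other clusters, against 44.9, 69.7 and 60.6% of CD14-PF4 cells, so T127 tumors differed least. For mature dendritic genes the shares were 3.84, 1.99 and 13.9% against 26.5, 10.6 and 30.3%, and for keratins 1.19, 0.667 and 0.656% against 15.3, 9.09 and 3.03%. The lists used to split the cells cannot serve as findings about the sets, and only other genes are read below.

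The 130 cells with monocyte genes comprised 44 of 98 long-term, 46 of 66 T22 and 40 of 66 T127 cells, with a median of 7606 UMIs. All 41 cells with a Cd177 UMI were among them, and Cd177, not used for the split, stood at 60.5, 141 and 41.9 CPM in the 3 experiments. Neutrophil genes summed to 2280.1, 7586 and 2773 CPM in the same cells, and to 1466, 426 and 149.7 CPM without the 2 cells richest in them, against 258, 48.5 and 193 CPM in the other clusters. The interferon-induced membrane gene Ifitm6 stood at 491, 902 and 434 CPM in them, Thbs1 at 1537, 1230 and 1566 CPM and fibronectin (Fn1) at 2633, 2061 and 2036 CPM. Cd14 was at 2270, 2056 and 2839 CPM, above the mean level of the other clusters in each experiment. C1qa was low in T22 and T127 tumors at 31.6 and 74.9 CPM but reached 1513 CPM in the long-term experiment, where 3 of the 44 cells held 66.2% of the macrophage list UMIs and C1qa was at 155 CPM without them. Pf4 was at 185, 0 and 77.9 CPM. Ptprc (CD45) was found in 126 of the 130 cells.

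In the 155 cells with neither keratins nor mature dendritic genes, Hp led in the long-term (1076 against 31.2 CPM, log2 ratio 4.72) and T127 experiments (614 against 47.5 CPM, 3.44), and came second to Chil3 in T22 tumors (1097 against 16.03 CPM, 5.41). Ifitm6 (3.37, 4.95 and 3.11) and Plac8 (3.09, 3.65 and 2.20) stood high in each experiment. The glutathione reductase Gsr was found in 117 of these cells (log2 ratios 2.03, 3.50 and 2.02) and the C-type lectin Clec4e in 104 (2.48, 3.63 and 0.59). The collagenase Mmp8, which is on the neutrophil list, was found in 66 (3.04, 3.99 and 1.18) and the adhesion receptor Adgre5 in 98 (1.99, 3.09 and 0.99). These genes were named after their values had been seen. The lowest gene was Retnla in the long-term experiment (-4.80), Hist1h3c in T22 tumors (0 UMIs against 124 CPM) and Ccl17, a gene of the list used to leave cells out, in T127 tumors (-5.37). Cxcl10 was among the 5 lowest in each experiment, at -4.08, -3.58 and -4.13.

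The 23 keratin cells were the deepest, with a median of 26859 UMIs against 7606 in the monocyte gene cells. There were 15 in the long-term, 6 in the T22 and 2 in the T127 experiment. All 23 held Ptprc UMIs. The limit for classical monocyte genes was passed by 17 of them, but by only 6 without Hp, which gave 91.7% of their UMIs from that list. Ly6c2 was seen in 1 of them and Cd177 in 0, which allows up to 13.04% of such cells to hold a UMI. Over the experiments they held Krt7 at 853 CPM, Cldn3 at 525 CPM and Wfdc18 at 6855 CPM beside C1qa at 2886 CPM and Hp at 1923 CPM. In malignant cells of the cluster named Malign_3 in the long-term experiment Krt7 was at 1337 CPM, Cldn3 at 1058 CPM, Wfdc18 at 34126 CPM and Hp at 4346 CPM, with C1qa at 72.2 CPM, Ptprc at 8.87 CPM and a median of 15056 UMIs. The malignant clusters of T127 tumors, Malign_0 and Malign_1, had Hp at 0.340 and 0.5499 CPM and Cldn3 at 0.0319 and 0.391 CPM, and the 2 keratin cells of T127 tumors had 0 UMIs of both genes. Keratin and macrophage genes thus occurred under the same barcodes, and whether those barcodes held more than 1 cell was not tested. Leaving the keratin cells out of the long-term experiment changed the log2 ratio of Pf4 from -0.51 to -2.03 and the number of genes 4-fold higher from 98 to 50.

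The 53 cells with mature dendritic genes, 26 long-term, 7 T22 and 20 T127, held 86.4, 99.9 and 99.8% of the Ccl5 UMIs of the cluster, at 12584, 18505 and 7331 CPM against 256, 136 and 234 CPM in the other clusters. The set was defined by the sum of the list, and no single gene of it was required. Ccr7 was found in 18, 7 and 9 of all CD14-PF4 cells and Fscn1 in 19, 11 and 7. Most of the 20 T127 cells of the set thus held no Ccr7 UMI, and most held no Fscn1 UMI. Ccl17, another gene of the list, stood at 608 CPM in the other clusters of T127 tumors. Ccl5 was seen in 18, 7 and 7 cells of the set. In T127 tumors the 7 lay in pools 2 and 4, and none of the 8 such cells of pools 1 and 3 held a Ccl5 UMI. In the long-term experiment 485 of the 515 Ccl5 UMIs outside the set came from pool 6. Their MHC class II genes summed to 25948 CPM in the long-term, 6229 in the T22 and 26826 in the T127 experiment. Hp was seen in 8 of the 53, and Ly6c2 and Cd177 in 0, which allows up to 5.66% of such cells to hold a UMI and sets no limit on cells that express the gene. Cd14 was at 1176 CPM, 0 and 1023 CPM. The mature dendritic genes as a list had ratios of 7.61 (7.23 to 8.02), 10.9 (10.2 to 11.6) and 2.01 (1.90 to 2.13) in all CD14-PF4 cells. The highest sum in any one of the other clusters was 1608, 892 and 2610.2 CPM against 1456, 1313 and 1668 CPM in CD14-PF4 cells.

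The pools differed in how these sets mixed. Keratin sums of CD14-PF4 cells ran from 0 to 2266 CPM over long-term pools with a median of 1030.3, were 1378, 1742, 282 and 603 CPM in T22 pools and 168, 20.2, 16.2 and 556 CPM in T127 pools, against at most 81.4, 78.9 and 26.2 CPM in the other clusters. Mature dendritic sums ran from 352 to 3167 CPM (median 1198) over long-term pools and were 964, 20.3, 1769.5 and 1981 CPM in T22 pools and 1959, 4616, 718 and 1467 CPM in T127 pools. The other clusters held 151 to 224, 90.8 to 149 and 579.7 to 1120.0 CPM, so T22 pool 2 lay below that range and T127 pool 3 within it.

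The 25 remaining cells, 14, 7 and 4 by experiment, carried macrophage genes at a higher summed level than the monocyte gene cells. Their macrophage list summed to 13056 CPM against 2805 in those cells and MHC class II to 31281 CPM, C1qa was at 5294 CPM, and Cd177 was seen in 0 of 25 cells, which allows up to 12% with a UMI. Ptprc was found in all 25. The macrophage list ran from 418 to 31481 CPM over single cells of the 25, so some lay below the 2805 CPM of the monocyte gene cells.

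Over all compared genes the rank correlation of CD14-PF4 levels with those of each cluster, a description without a test over genes that share libraries and depth, was highest with CD14-IL1B in the long-term experiment (Spearman 0.852 over 5844 genes), followed by Macro-M2 (0.849) and CD16-CDKN1C (0.847). It was highest with Macro-M2 in T22 tumors (0.790 over 5515 genes) and with Macro-others in T127 tumors (0.912 over 5304 genes). The pDC were farther, at 0.673, 0.677 and 0.628.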

How the data were processed

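Single-cell RNA libraries of 16 pools of mouse mammary tumors were used, each mixing tumors tagged with hashtag antibodies. The deposited files hold UMI counts per gene and cell for 32285 genes, which the authors made with Cell Ranger 6.0.0 on GRCm38 per the submitters' processing notes, counting intronic reads as the study's methods state. The authors removed cells with few genes, cells with over 20% mitochondrial counts and doublets called by Scrublet, and no doublet caller was run here. The study's text gives more than 1 gene minimum, and the deposited cells hold 402 genes or more, 8635 of 53946 under 1000 genes. Deposited signal matrices of 4000 genes were not used.

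Cell names are the authors' annotation. In the long-term pools the deepest copy of each shared barcode of 16 bases was kept. UMIs were summed over the cells of a cluster in each experiment and scaled to CPM. Log2 ratios add 10 CPM to both levels, and a gene needed 20 UMIs seen or expected in CD14-PF4 cells. Shares of cells with a UMI were also taken after drawing 3000 UMIs from every cell that had as many. Intervals are exact Poisson for levels, Clopper-Pearson for shares and conditional binomial for ratios, at 95%. A floor of 3 UMIs stands for a sum of 0. Each experiment is 1 sample, so no p-value is given.

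The genes named were Pf4, Cd177 and Cd14, the 15 highest and the 10 lowest of the long-term experiment, with under 50% of UMIs in 2 cells asked of the higher ones, 8 higher genes that failed only that limit, and members of 44 lists. Other genes, such as Ifitm6, Fn1, Ms4a7, Lyz2, Gsr, Clec4e, Mmp8 and Adgre5, were chosen after their values were seen. The cells and lists were chosen with earlier results of these data known. Pool totals of 34755906 to 55600377 UMIs and sums of 728223 to 1052355 UMIs over CD14-PF4 cells set the precision. Alternatives covered the pseudocount, weighting, depth, shared barcodes, concentrated genes and single pools. The level contrast and its ratio intervals were tested first on simulated counts with known folds (numpy 2.4.6 and scipy 1.17.1 under python 3.11.15, with matplotlib 3.10.9 and pandas 2.3.3). No gene was concentrated in a few cells in those counts, and other steps were not part of that test. One gene of the classical monocyte list is counted in the list's sums but is not reported here on its own.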

Additional observations from a re-analysis of the deposited data

Results flagged for a closer look

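Among 57 sets of pools screened for a pool far from the others, of which chance alone would single out about 1 in 20, 3 stood out. Pf4 in CD14-PF4 cells was 1657 CPM in pool 1 of the long-term experiment, against 0 to 619.6 CPM in the other 7 pools, and the log2 ratio of the experiment was -1.96 without that pool. Ccl5 was 5455 CPM in pool 4 of the T22 experiment against 6.78 to 920.3 CPM in the other 3 pools. Neutrophil genes summed to 11057 CPM in the same pool against 182 to 597 CPM, with 92.4% of the experiment's neutrophil UMIs in 2 cells. In long-term pool 1 a single cell held 282 Pf4 UMIs. All 1520 Ccl5 UMIs of T22 pool 4 lay in 4 cells with mature dendritic genes. In that pool 1 cell held neutrophil genes at 183733 CPM. Why these cells fell in these pools was not tested.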

How the results depend on the processing

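No paired analysis was possible because no result comes from a test, and values of the same pool are set side by side as a description only. Values in this order are long-term, T22 and T127 unless named. With a pseudocount of 1 CPM the log2 ratio of Cd177 was 3.33, 5.36 and 1.76, and 246, 280 and 43 genes were 4-fold higher and 33, 64 and 31 lower. A mean over cells gave 63 higher and 18 lower genes in the long-term experiment, 44 lower genes and a Cd14 log2 ratio of 0.96 in T22 and a Pf4 log2 ratio of -4.59 in T127 tumors. Without each gene's top 2 CD14-PF4 cells 39, 62 and 1 genes were higher and 34, 87 and 46 lower, and T127 Pf4 was -4.98. The other clusters were left whole there, which by itself tends to lower ratios. Equal weight of the 6 clusters gave 19 lower genes in the long-term experiment and reversed T127 Cd14 to 0.18, with Macro-M1 holding 3 cells there. Chosen after seeing the data, leaving out keratin cells gave 50 higher and 27 lower genes in the long-term experiment and 51 lower in T22 tumors, and leaving out mature dendritic gene cells reversed T127 Cd14 to 0.11. Leaving out the 2 cells richest in neutrophil genes, also chosen after seeing the data, gave 100, 149 and 23 higher and 9, 25 and 23 lower genes. Among cells of at least 3000 UMIs the T22 share was 1.28%. The cause of these changes was not tested.

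Leaving out 1 pool at a time, the share ranged from 0.600 to 0.702%, 0.732 to 0.892% and 2.43 to 3.41%. Pf4 ranged from -1.96 (without pool 1) to -0.34, from -2.36 to -1.72 and from -3.86 to -3.38. Cd177 ranged from 1.10 to 1.46, 2.68 to 3.16 and 0.51 to 1.33, and Cd14 from -0.61 to -0.30, 0.21 to 0.52 and -0.49 to -0.18. Higher genes numbered 94 to 124, 151 to 159 and 21 to 38 (38 without T127 pool 3), and lower genes 7 to 20 (20 without long-term pool 8), 27 to 36 and 16 to 27. With all copies as deposited the long-term experiment had 101 higher and 10 lower genes. Cd177 in the long-term and T127 experiments rested on 18 and 14 UMIs, and the T127 keratin values on 2 cells.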
